A study of Sus scrofa with 2 samples.

Results

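XCR1 and FLT3 dendritic cell nuclei made up 155 of 31664 nuclei kept from the left ventricle of Bama pigs, 32 of them in a triple-transgenic library (TG) and 123 in a wild-type library (WT). A nucleus was counted when it held at least 2 unique molecular identifiers (UMIs, each one captured RNA molecule) of XCR1 and FLT3 together and at least 4 of XCR1, FLT3, CLNK and WDFY4 together. It also had to have under 1% of its UMIs from the cardiomyocyte genes RYR2 and CTNNA3 and under 0.15% from the macrophage genes CD163 and F13A1. These 8 genes chose the nuclei, so their values are given as a description and support nothing. Nuclei of both libraries were kept when at least 500 genes were detected and at most 5% of UMIs were mitochondrial.

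The TG genotype carried 3 transgenes, written PNPLA3I148M-GIPRdn-hIAPP in the series' design text: a PNPLA3 variant linked to fatty liver in humans, a dominant-negative form of the receptor for the gut hormone GIP, and human islet amyloid polypeptide. The promoters that drive them are not given in the sources used here, and the WT genotype carried none of them. Both groups had eaten a diet rich in fat and sucrose over 12 months. The tissue was frozen left ventricular free wall, from which nuclei were recovered on an iodixanol gradient and sequenced with 10x Genomics 3' v3.1 chemistry. Each genotype was 1 library, and the labels do not give the number of animals behind it, so no difference between TG and WT had a replicate check. Every interval given here is a 95% interval that covers counting error only, and no p-value was computed.

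Conventional dendritic cells of the XCR1 type take up dead cells and present their antigens to CD8 T cells, a task known as cross-presentation. XCR1 is the receptor for XCL1, a chemokine that NK cells and activated CD8 T cells release, and FLT3 is the receptor for the growth factor FLT3LG, on which dendritic cells depend. In mouse and human these cells arise under the transcription factors IRF8, BATF3 and ID2, and they are a scarce resident of the healthy heart, where macrophages are the most common immune cell.

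In the RefSeq annotation of the pig genome build Sscrofa11.1, XCR1 lies on chromosome 13 (29150376 to 29233802), FLT3 on chromosome 11 (5370475 to 5455439), CLNK on chromosome 8 (6604975 to 6769769) and WDFY4 on chromosome 14 (89353362 to 89632722). RAB7B, a marker outside the rule, lies on chromosome 9 (66635636 to 66666034), as do BATF3 (130699092 to 130711719) and CADM1 (42644487 to 42984934). IRF8 lies on chromosome 6 (3041617 to 3060685).

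The kept nuclei numbered 14939 in TG and 16725 in WT, with median depths of 3937 UMIs in TG and 5442 UMIs in WT. The lowest depth of a kept nucleus was 1972 UMIs in TG and 602 UMIs in WT, so WT held shallower barcodes than TG did. The dendritic cell nuclei had between 2068 and 8880 UMIs in TG, with a median of 4303, and between 998 and 27125 UMIs in WT, with a median of 5676. In all they gave 142222 nuclear-encoded UMIs in TG and 803227 in WT, which sets the precision of every level. The 2 libraries shared 81 barcode sequences, none of which marked a dendritic cell nucleus in both.

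The conditions were met in steps. At least 2 UMIs of XCR1 and FLT3 were present in 79 TG nuclei and 169 WT nuclei. Of these, 50 in TG and 144 in WT also had 4 UMIs of the 4 genes, and the cardiomyocyte limit left 45 in TG and 134 in WT. The macrophage limit then removed 13 in TG and 11 in WT. Just inside the threshold of 4 UMIs, 1 TG nucleus and 0 WT nuclei had exactly 4, and 0 TG and 5 WT nuclei had exactly 5. Just outside it, 5 TG and 7 WT nuclei met every other condition with exactly 3.

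Within the nuclei the 4 genes together gave between 4 and 44 UMIs per nucleus in TG, with a median of 12.5, and between 5 and 106 in WT, with a median of 28. XCR1 gave between 0 and 8 UMIs in TG, with a median of 1, and between 0 and 22 in WT, with a median of 3. FLT3 gave between 0 and 9 in TG, with a median of 3.5, and between 0 and 22 in WT, with a median of 4. CLNK, an adaptor of immune receptor signalling, had a median of 3 UMIs in TG and 7 in WT. WDFY4, which mouse dendritic cells need for cross-presentation, had a median of 4.5 in TG and 12 in WT. WT medians were the higher for depth and for the UMIs of the 4 genes together, and WT nuclei reached beyond the highest TG nucleus in both.

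**Figure D1:**
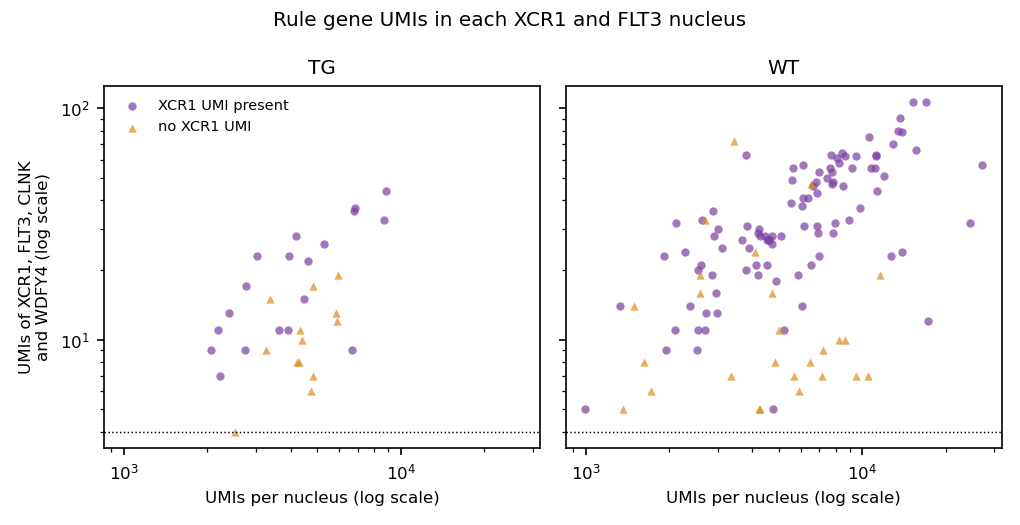
UMIs of XCR1, FLT3, CLNK and WDFY4 per nucleus (y, log scale) against all UMIs of the nucleus (x, log scale), for the 32 TG nuclei (left) and the 123 WT nuclei (right). The dotted line is the threshold of 4 UMIs, and circles and triangles mark nuclei with and without an XCR1 UMI. Most nuclei lie well above the line in both libraries, with medians of 12.5 in TG and 28 in WT.

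As levels, in counts per 1000000 nuclear-encoded UMIs (CPM) summed over the nuclei, XCR1 stood at 359 CPM in TG and 640 CPM in WT, and FLT3 at 914 CPM in TG and 680 CPM in WT. CLNK stood at 1005 CPM in TG and 1554 CPM in WT, and WDFY4 at 1399 CPM in TG and 2139 CPM in WT. Macrophage nuclei, defined by at least 3 UMIs and at least 0.15% of CD163 and F13A1, had an XCR1 level of 2.17 CPM in TG and 0.998 CPM in WT. XCR1 was detected in 19 of 32 TG nuclei (59.4%) and 97 of 123 WT nuclei (78.9%). Among cardiomyocyte nuclei, defined by at least 1% of RYR2 and CTNNA3, it was detected in 6 of 6215 in TG (0.0965%) and 17 of 7208 in WT (0.236%), at median depths of 8422 UMIs in TG and 10841.5 UMIs in WT. All 4 genes were present in 16 of the 32 TG nuclei and 76 of the 123 WT nuclei. FLT3 appeared without XCR1 in 13 TG and 26 WT nuclei, and XCR1 without FLT3 in 2 TG and 12 WT nuclei.

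RAB7B, a small GTPase of late endosomes that marks XCR1 dendritic cells in human tissue, was the marker that the rule did not use. It was chosen with earlier results of these data known, so its values describe the nuclei and do not check their label. It stood at 435.9 CPM in the dendritic cell nuclei of TG and 313.7 CPM in those of WT, against 2.00 CPM in all other TG nuclei and 1.83 CPM in all other WT nuclei. The ratio to other nuclei was 218 in TG (161 to 293) and 172 in WT (143 to 206). RAB7B was detected in 18 of 32 TG nuclei (56.2%) and 82 of 123 WT nuclei (66.7%), against 59 of 6215 cardiomyocyte nuclei in TG (0.949%) and 36 of 7208 in WT (0.499%). None of the 380 TG nuclei and none of the 569 WT nuclei of T or NK type held a RAB7B UMI, which allows shares of nuclei with a UMI of up to 0.966% in TG and 0.646% in WT and sets no limit on nuclei that express the gene. Macrophage nuclei had 10.5 CPM in TG and 5.66 CPM in WT, so RAB7B was 41.5 times higher in the dendritic cell nuclei than in macrophage nuclei of TG and 55.5 times higher in WT.

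The transcription factors of this lineage were likewise high. IRF8 stood at 640 CPM in the dendritic cell nuclei of TG and 1033 CPM in those of WT, against 54.7 CPM in macrophage nuclei of TG and 82.4 CPM in those of WT. It was detected in 25 of 32 TG nuclei and 106 of 123 WT nuclei, with a median of 2.5 UMIs per nucleus in TG and 6 in WT. BATF3, the partner of IRF8 that keeps its level up in mouse, stood at 141 CPM in TG and 254 CPM in WT, against 19.6 CPM in macrophage nuclei of TG and 40.1 CPM in those of WT. ID2, which restrains E-protein transcription factors, was 9.45 times the macrophage level in TG and 54.3 times in WT. All 3 factors passed 2-fold over macrophage nuclei in both libraries.

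Over macrophage nuclei of the same library, 472 of 10648 genes outside the rule were at least 2-fold higher in both libraries (4.43%) and 446 were at least 2-fold lower (4.19%). A gene counted when its ratio was at least 2 or at most 0.5 in TG and in WT, each with an interval that left out 1, and when it had at least 20 UMIs. Of the 16 measured genes of a list of XCR1 dendritic cell identity, from which the 4 rule genes were left out, 9 were higher and 0 lower. The list, RAB7B included, was chosen with earlier results of these data known. The list's median log2 ratio was 1.63 in TG and 2.29 in WT, against -0.14 in TG and 0.07 in WT over all genes. The 9 were RAB7B, IRF8, BATF3, ID2, ZBTB46, DPP4, NAAA, SLAMF7 and CD226. SLAMF7, a receptor of the SLAM family, stood at 127 CPM in TG and 238 CPM in WT, against 1.81 CPM in macrophage nuclei of TG and 0.499 CPM in those of WT. CD226, an adhesion receptor also known from T and NK cells, stood at 556 CPM in TG and 677 CPM in WT, against 13.8 CPM in macrophage nuclei of TG and 3.66 CPM in those of WT. ZBTB46, a factor that in mouse separates conventional dendritic cells from macrophages, stood at 56.3 CPM in TG and 87.2 CPM in WT. THBD and CPVL, which mark this cell type in human, had at most 1 UMI in either library.

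**Figure D2:**
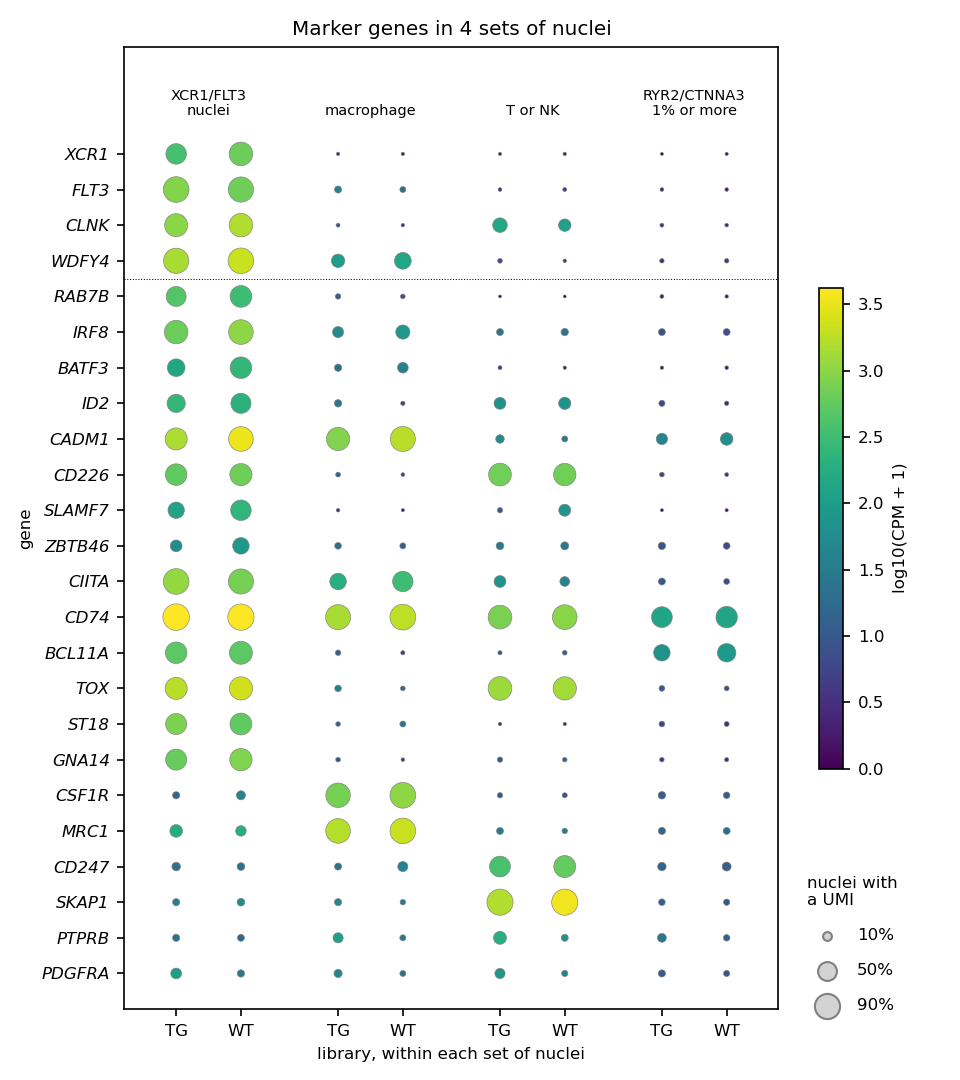
Levels of 24 genes (rows) in 4 sets of nuclei (column pairs, TG left and WT right in each). Colour is the level as log10 of CPM + 1 and dot area is the percentage of nuclei with a UMI. The 4 rule genes, RAB7B, IRF8, BATF3 and ID2 are high in the dendritic cell pair, while CSF1R and MRC1 are high in the macrophage pair and CD247 and SKAP1, which were among the genes that chose them, in the T or NK pair.

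The genes furthest above the macrophage level included several with no place on the identity list. TOX, a nuclear factor best known from T cells, stood at 1730 CPM in TG and 2306 CPM in WT, against 34.8 CPM in macrophage nuclei of TG and 17.8 CPM in those of WT. BCL11A, a repressor that dendritic cell and B cell progenitors need in mouse, stood at 520 CPM in TG and 513 CPM in WT, with ratios to macrophage nuclei of 49.6 in TG and 140 in WT. GNA14, a G-protein alpha subunit, stood at 612 CPM in TG and 833 CPM in WT, with ratios of 73.5 in TG and 313 in WT. ANPEP, the surface aminopeptidase CD13, stood at 162 CPM in TG and 219 CPM in WT, with ratios of 63.8 in TG and 658 in WT. KCNA3, a voltage-gated potassium channel of lymphocytes, was 40.5 times the macrophage level in TG and 163 times in WT. DOCK5, an activator of the small GTPase RAC, was 19.6 times that level in TG and 40.6 times in WT.

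Other genes in that group have no established dendritic cell role that can be given here. EHF, an ETS factor of epithelia, stood at 246 CPM in TG and 64.7 CPM in WT, against 1.81 CPM in macrophage nuclei of TG and 0.333 CPM in those of WT. ST18, a zinc finger factor of the nervous system, stood at 816 CPM in TG and 553 CPM in WT, with ratios of 60.9 in TG and 22.5 in WT. RIMS2, a scaffold of the presynaptic active zone, stood at 302 CPM in TG and 1296 CPM in WT, with ratios of 36.3 in TG and 269 in WT. PKIB, an inhibitor of protein kinase A, was 30.4 times the macrophage level in TG and 51.5 times in WT. NEDD4L, a ubiquitin ligase of ion channels, stood at 2658 CPM in TG and 1421 CPM in WT, with ratios of 27.2 in TG and 15.3 in WT. NKAIN2, a partner of the sodium pump, reached ratios of 48.6 in TG and 23.3 in WT through 4 TG nuclei and 7 WT nuclei, with 42.5% of its TG UMIs and 77.4% of its WT UMIs in a single nucleus.

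Macrophage genes were lower in the dendritic cell nuclei than in macrophage nuclei. CD163 and F13A1 separated these sets, so genes that go with them lean the same way, and the counts are a description. Of 16 measured macrophage markers, 14 were lower than in macrophage nuclei and 0 higher, with a median log2 ratio of -5.61 in TG and -4.31 in WT. CSF1R, the receptor of the macrophage growth factor, stood at 14.1 CPM in TG and 39.8 CPM in WT, against 735 CPM in macrophage nuclei of TG and 1034 CPM in those of WT. The endocytic adaptor DAB2 stood at 70.3 CPM in TG and 148 CPM in WT, against 2596 CPM in macrophage nuclei of TG and 3752 CPM in those of WT. The mannose receptor MRC1, the folate receptor FOLR1, the selenium carrier SELENOP and the neuropilin NRP1 were also lower, at ratios between 0.0847 and 0.101 in TG and between 0.0900 and 0.126 in WT. Summed over the list, macrophage markers reached 1195 CPM in the dendritic cell nuclei of TG and 3051 CPM in those of WT, against 13163 CPM in macrophage nuclei of TG and 19075 CPM in those of WT. All nuclei outside the dendritic cell set gave less than the dendritic cell nuclei did, at 747 CPM in TG and 1401 CPM in WT. A single gene of the list, RBPJ, supplied most of the sum in the dendritic cell nuclei of both libraries, and its levels are given under other observations. In the dendritic cell nuclei, 6 of the 16 markers were at 0 in TG, and 1 was in WT.

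Over T or NK nuclei, defined by at least 4 UMIs of a set of T cell genes that includes CD3E, CD247, THEMIS and SKAP1, 463 of 8885 genes were at least 2-fold higher in both libraries (5.21%) and 500 were lower (5.63%). The identity list had 10 of 16 measured members higher and 0 lower. MARCHF1, a ubiquitin ligase that turns over MHC class II, stood at 1188 CPM in TG and 920 CPM in WT, against 12.1 CPM in T or NK nuclei from TG and 7.80 CPM in those of WT. FGD2, an activator of the small GTPase CDC42, stood at 682 CPM in TG and 661 CPM in WT, with ratios to T or NK nuclei of 90.3 in TG and 120 in WT. ST18 reached ratios of 540 in TG and 602 in WT, and no EHF UMI was found in T or NK nuclei of either library. TOX did not pass 2-fold over these nuclei, at 1220 CPM in T or NK nuclei from TG and 1324 CPM in those of WT, and neither did CD226, at 688 CPM in T or NK nuclei from TG and 684 CPM in those of WT. The genes named for being lowest against T or NK nuclei were KDSR, KLF12, ARHGEF18 and PTPN4, with ratios between 0.0998 and 0.162 in TG and between 0.0867 and 0.139 in WT.

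The nuclei lay together on genes that the rule had not used. With the 8 rule genes left out, 2000 variable genes were reduced to 30 principal components, and for each nucleus its 15 nearest nuclei in the same library were found. Dendritic cell nuclei made up 62.5% of these neighbours in TG and 77.4% in WT, against 0.214% of all nuclei in TG and 0.735% in WT. They were more than 50% of the neighbours for 19 of 32 TG nuclei and 105 of 123 WT nuclei, and 3 TG nuclei and 2 WT nuclei had none among their neighbours. Macrophage nuclei made up 6.04% of the neighbours in TG and 2.38% in WT, and T or NK nuclei 2.92% in TG and 0.596% in WT. The 2 libraries differ in the number of nuclei there are to be found, so these percentages are not compared between them.

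Some antigen presentation genes stood above the macrophage level. Over T or NK nuclei, 10 of 14 measured class II genes were higher and 1 was lower. Over all genes 5.21% were higher than in T or NK nuclei and 5.63% were lower. Of 22 measured class I genes, 0 were higher than in T or NK nuclei and 3 were lower (NLRC5, RAB27A and RAC2). CD74, the invariant chain that guides MHC class II molecules, stood at 4240 CPM in TG and 4044 CPM in WT, against 1435 CPM in macrophage nuclei of TG and 1823 CPM in those of WT. CIITA, the master activator of class II genes, was 5.63 times the macrophage level in TG and 2.29 times in WT, and the pig class II gene SLA-DQB1 was 4.53 times that level in TG and 2.42 times in WT. Of 16 measured class II genes these 3 were higher than in macrophage nuclei and 3 were lower, namely the lysosomal proteases LGMN, CTSB and CTSD. The shares over all genes were 4.43% higher than in macrophage nuclei and 4.19% lower. Of 22 measured genes of the class I pathway, 4 were higher and 0 lower. They were the peptide transporter subunits TAP1 and TAP2 and the immunoproteasome subunits PSMB8 and PSMB9, of which TAP1 stood at 70.3 CPM in TG and 53.5 CPM in WT, against 18.8 CPM in macrophage nuclei of TG and 14.1 CPM in those of WT.

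Some sensor and interferon genes were lower than in macrophage nuclei, while most passed in neither direction. Of 21 measured genes of nucleic acid sensing and Toll-like receptors, 0 were higher and 4 were lower, all of them surface receptors for microbial products (TLR1, TLR2, TLR4 and TLR6). TLR2 stood at 56.3 CPM in TG and 68.5 CPM in WT, against 274 CPM in macrophage nuclei of TG and 355 CPM in those of WT. Of 25 measured interferon-induced genes, 1 was higher (the chemokine CXCL9) and 9 were lower, with a list median log2 ratio of -0.97 in TG and -2.07 in WT. Over all genes 4.43% were higher than in macrophage nuclei and 4.19% were lower. The antiviral gene OAS2 stood at 14.1 CPM in TG and 12.5 CPM in WT, against 169 CPM in macrophage nuclei of TG and 56.4 CPM in those of WT.

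Several cytoskeletal genes stood above the macrophage level. Of 27 measured genes of actin and migration, 6 were higher in the dendritic cell nuclei and 0 lower, with a median log2 ratio of 0.62 in TG and 0.69 in WT. Over all genes 4.43% were higher. FMNL2, a formin that extends actin filaments at the leading edge, was 15.0 times the macrophage level in TG and 25.6 times in WT. The others were DOCK10, CORO1A, MYO1G and the integrin subunits ITGAL and ITGA4. Over T or NK nuclei, 4 of the 27 were higher and 4 were lower, FMNL2 among the higher and ITGAL among the lower. The median log2 ratio there was -0.14 in TG and -0.59 in WT, and 5.21% of all genes were higher there and 5.63% lower. Among transcription factors and cytokine receptors of dendritic cells, 6 of 22 were higher than in macrophage nuclei (BCL6, ETV6, ZEB1, BCL11A, RELB and NR4A3) and 2 were lower (ZEB2 and CSF1R). ZEB2, a factor of the other dendritic cell branches and of macrophages, stood at 577 CPM in TG and 457 CPM in WT, against 2578 CPM in macrophage nuclei of TG and 3773 CPM in those of WT. Of 19 lipid and lysosome genes 5 were lower than in macrophage nuclei and 0 higher, and 6 of 17 glucocorticoid and fasting genes were lower and 0 higher. Over all genes 4.19% were lower. CD163 and F13A1 separated these sets, so genes that go with them lean the same way, and these counts are a description.

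XCL1, the ligand of XCR1, was found at 42.3 CPM in T or NK nuclei from TG and 106 CPM in those of WT. It was detected in 35 of 380 T or NK nuclei in TG (9.21%) and 116 of 569 in WT (20.4%), at median depths of 2842 UMIs in TG and 3320 UMIs in WT. Its level was 0.826 CPM in cardiomyocyte nuclei of TG and 0.400 CPM in those of WT, and the dendritic cell nuclei held 1 UMI in each library. FLT3LG, the ligand of FLT3, was spread over all sets of nuclei, at 417 CPM in T or NK nuclei from TG and 868 CPM in those of WT. In the dendritic cell nuclei it stood at 197 CPM in TG and 426 CPM in WT, a TG over WT ratio of 0.462 (0.303 to 0.680).

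The dendritic cell nuclei were a smaller share of the TG library than of the WT library. They were 32 of 14939 kept nuclei in TG (0.214%, 0.147 to 0.302) and 123 of 16725 in WT (0.735%, 0.612 to 0.877), a ratio of 0.291 (0.191 to 0.433). Other immune nuclei were also a smaller share in TG. Macrophage nuclei were 5.30% of TG and 8.11% of WT nuclei, a ratio of 0.653 (0.598 to 0.714), and T or NK nuclei were 2.54% of TG and 3.40% of WT nuclei, a ratio of 0.748 (0.655 to 0.853). Cardiomyocyte nuclei were 41.6% of TG and 43.1% of WT nuclei. Counted only among dendritic cell and macrophage nuclei, the dendritic cell nuclei were 3.88% in TG and 8.31% in WT, a ratio of 0.467 (0.306 to 0.694).

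A rule in UMIs finds fewer nuclei where depth is lower, and TG was the shallower library. With every nucleus thinned to 2000 UMIs and shallower ones left out, the rule found 17 of 14765 TG nuclei and 82 of 14791 WT nuclei, a ratio of 0.208 (0.115 to 0.353). With at least 1 XCR1 UMI asked of each nucleus, 19 TG and 97 WT nuclei remained and the ratio was 0.219. The limit on CD163 and F13A1 removed 13 TG nuclei, against 11 in WT, and with 0 UMIs of both asked the ratio was 0.224. Each library came from its own piece of tissue, so genotype, animal, tissue sampling and nucleus recovery cannot be told apart.

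**Figure D3:**
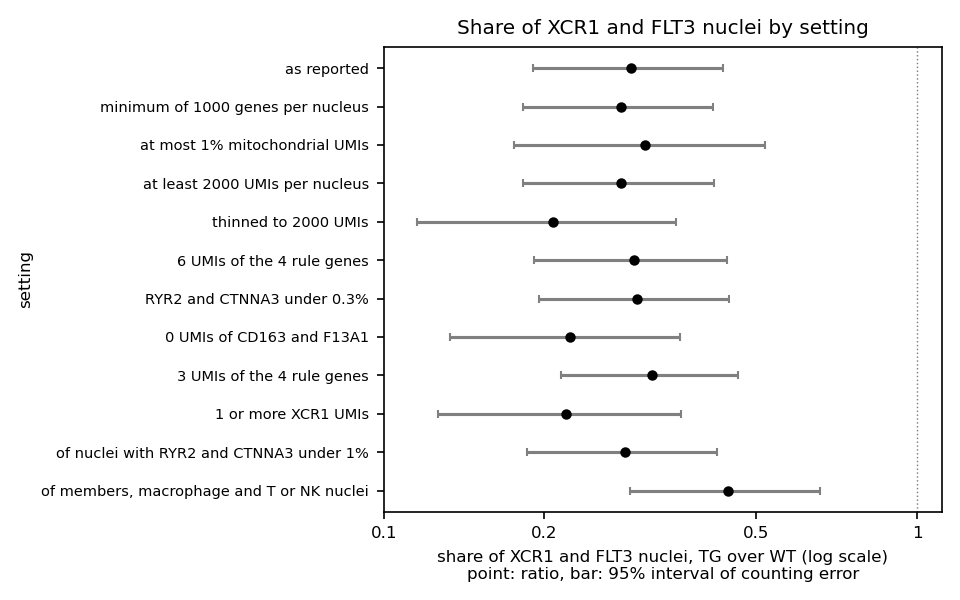
Ratio of the share of dendritic cell nuclei in TG over that in WT (x, log scale) as reported and under 11 alternatives (y), with 95% intervals of counting error as bars and a dotted line at 1. Every ratio plotted lies below 1, from 0.208 with nuclei thinned to 2000 UMIs to 0.443 among dendritic cell, macrophage and T or NK nuclei, and the reported ratio is 0.291.

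Between TG and WT, within the dendritic cell nuclei, 344 of 6982 genes were at least 2-fold higher in TG (4.93%) and 413 at least 2-fold lower (5.92%). Scaled with trimmed mean (TMM) factors, which left the median log2 ratio of all genes at -0.14, the counts were 262 higher and 581 lower. Of the 19 measured identity genes, 1 was higher and 3 were lower in TG (4 with TMM factors, SLAMF7 being the fourth), with a median log2 ratio of -0.34 against 0.00 over all genes. Among nuclei with an XCR1 UMI none of these 3 passed as lower and ZBTB46 was the 1 that did, and with nuclei thinned to 2000 UMIs 0 of 12 measured genes passed in either direction. The higher one was GCSAM, a signalling adaptor of germinal centre B cells, at 120 CPM in TG and 38.6 CPM in WT, a ratio of 3.1 (1.61 to 5.77). CADM1, an adhesion molecule that marks XCR1 dendritic cells across mammals, gave between 0 and 22 UMIs per nucleus in TG, with a median of 4.5, and between 0 and 113 in WT, with a median of 16. Its level was 1448 CPM in TG and 3318 CPM in WT, a ratio of 0.437 (0.377 to 0.503), and it was detected in 22 of 32 TG and 106 of 123 WT nuclei. Macrophage nuclei had CADM1 as well, at 875 CPM in TG and 1738 CPM in WT.

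The other 2 lower identity genes were TLR3, the endosomal sensor of double-stranded RNA, and CPNE3, a calcium-dependent phospholipid-binding protein. TLR3 had 2 UMIs in TG (14.1 CPM) and 62 in WT (77.2 CPM), a ratio of 0.182 (0.0216 to 0.686). CPNE3 stood at 84.4 CPM in TG and 176 CPM in WT. IRF8 with a ratio of 0.619, BATF3 with 0.554 and SLAMF7 with 0.532 did not pass 2-fold, and RAB7B had a ratio of 1.39 (1.04 to 1.84).

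Of the 12 genes furthest above WT in TG, RNF144B and S100A6 had the smallest part of their TG UMIs in any single nucleus, at 18.1% and 24.1%, while the other 10 had between 36.2% and 80.8%. RNF144B, a ubiquitin ligase of the RBR family, had 160 UMIs in 23 of 32 TG nuclei and 112 UMIs in 57 of 123 WT nuclei. Its level was 1125 CPM in TG and 139 CPM in WT, a ratio of 8.07 (6.30 to 10.4), and the TG over WT ratio in macrophage nuclei was 1.74 (1.52 to 1.99). S100A6, a calcium-binding protein, had 29 UMIs in 13 TG nuclei and 25 UMIs in 15 WT nuclei, a ratio of 6.55 (3.70 to 11.7), and its ratio in macrophage nuclei was 13.2. ETV3, a repressor of the ETS family, had 33 UMIs in 7 TG nuclei and 21 UMIs in 12 WT nuclei, a ratio of 8.88 (4.98 to 16.1). EHF, named above, was detected in 16 of 32 TG nuclei and 32 of 123 WT nuclei, with a TG over WT ratio of 3.80 (2.40 to 5.95).

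Most of the others were present in few nuclei. NEGR1, a neuronal adhesion molecule that fibroblasts also express, had 52 UMIs in 12 TG nuclei, with 51.9% of them in a single nucleus, and 10 UMIs in 5 WT nuclei. LNX1, a ubiquitin ligase, had 26 UMIs in 2 TG nuclei and 3 UMIs in 2 WT nuclei. ABLIM3, KITLG, HPSE2 and the carboxypeptidase M gene CPM likewise had between 65.2% and 76.5% of their TG UMIs in a single nucleus. ARHGAP28, NCALD and SLCO5A1 had between 36.2% and 48.4% there. CPM had 0 UMIs among the 19 TG nuclei with XCR1, and SLCO5A1 had 4 UMIs in TG and 32 in WT once nuclei with any CD163 or F13A1 UMI were left out.

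The genes furthest below WT in TG were detected in more of the WT nuclei. C8orf34 had 17 UMIs in 4 of 32 TG nuclei and 2183 UMIs in 99 of 123 WT nuclei, at 120 CPM in TG and 2718 CPM in WT. Its ratio was 0.0440 (0.0256 to 0.0706), and in macrophage nuclei it stood at 39.5 CPM in TG and 464 CPM in WT. DPP10, a partner of Kv4 potassium channels, had 11 UMIs in 3 TG nuclei and 819 UMIs in 61 WT nuclei, a ratio of 0.0759 (0.0377 to 0.136), while macrophage nuclei had 9.05 CPM in TG and 6.16 CPM in WT. ME1, the cytosolic malic enzyme that supplies NADPH, had 23 UMIs in 10 TG nuclei and 650 UMIs in 80 WT nuclei. Its ratio was 0.20 (0.126 to 0.303), and in macrophage nuclei the ratio was 3.14.

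RIMS2 had 43 UMIs in 15 TG nuclei and 1041 UMIs in 88 WT nuclei, a ratio of 0.233 (0.168 to 0.317). SNX30, a sorting nexin of endosomes, stood at 253 CPM in TG and 992 CPM in WT, a ratio of 0.255 (0.177 to 0.356), and its ratios in macrophage nuclei (0.535) and T or NK nuclei (0.430) lay on the same side. The flippase gene ATP9A, the splicing regulator MBNL3 and the netrin relative NTNG1 had ratios of 0.174, 0.158 and 0.145. FAM189A1, DIAPH3, DEUP1 and NXPH2 had no UMI in TG and 234, 94, 88 and 87 UMIs in WT. Against the 3 UMIs that a count of 0 allows, their TG level was at most 0.0724, 0.180, 0.193 and 0.195 of the WT level as counted, and the intervals of the ratios, which also carry the counting error in WT, reached 0.0897, 0.226, 0.242 and 0.245. DIAPH3, a formin of dividing cells, came from 4 WT nuclei, whereas DEUP1 came from 44 and FAM189A1 from 34.

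**Figure D4:**
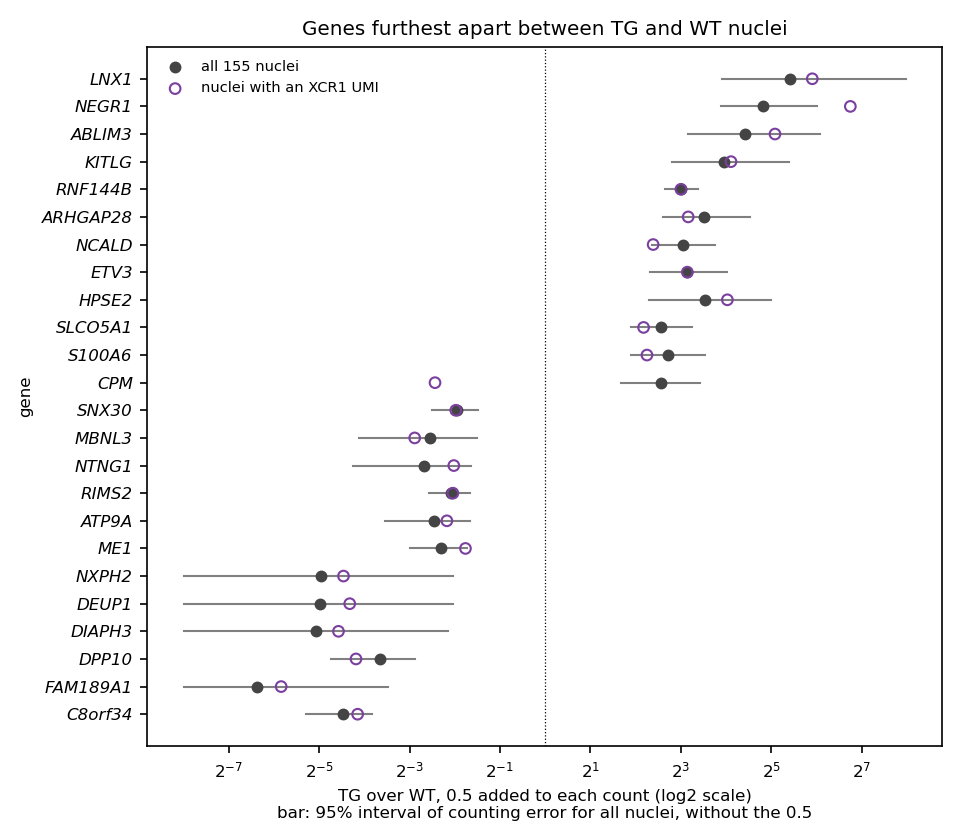
TG over WT ratio (x, log2 scale, 0.5 added to each count) of the 12 genes furthest above and the 12 furthest below WT (y). Filled points are all 155 nuclei, grey bars their 95% counting intervals, and open circles the nuclei with an XCR1 UMI. The bars of the 4 genes with 0 UMIs in TG reach down to a ratio of 0 and are drawn short at the left. The open circle lies on the same side of 1 as the filled point for every gene other than CPM.

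Some genes of dendritic cell maturation were higher in TG, in a count that changed with the nuclei included. Of 11 measured genes of the mature migratory list, 5 were higher in TG and 0 lower, with a median log2 ratio of 0.68 (4 were higher with TMM factors, CD80 falling out). The share higher over all genes was 4.93%. RELB, an NF-kB subunit, stood at 162 CPM in TG and 44.8 CPM in WT, a ratio of 3.61. The costimulatory ligand CD80, the cytokine gene IL15 and the cytokine subunit gene EBI3 had ratios of 2.02, 2.99 and 3.63. CCR7, the receptor that guides dendritic cells to lymph nodes, had 13 UMIs in 4 TG nuclei and 14 UMIs in 1 WT nucleus. CD83, CD86 and CD40, which mature dendritic cells also carry, did not pass 2-fold, and CD83 stood at 204 CPM in TG and 186 CPM in WT. Among nuclei with an XCR1 UMI the count was 0 of 8 in each direction, and with the nucleus richest in each gene left out it was 1 of 7, RELB. With 0 UMIs of CD163 and F13A1 asked it was 1 of 9, EBI3, and with nuclei thinned to 2000 UMIs 0 of 2. Leaving out nuclei with markers of other classes gave 2 of 9 higher (CCR7 and RELB) and 1 lower (IL4I1).

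Few presentation genes passed 2-fold between the genotypes, 1 in each of the class I and class II lists, which is near the 4.93% higher over all genes. Of 15 measured class II genes 1 was higher in TG and 0 lower, with a median log2 ratio of 0.58. It was IFI30, a lysosomal thiol reductase, at 190 CPM in TG and 38.6 CPM in WT, detected in 8 TG and 19 WT nuclei. CIITA had a ratio of 1.49, SLA-DQB1 of 1.37 and the protease CTSS of 1.62. Of 22 class I genes 1 was higher, CYBA, the membrane subunit of the phagocyte NADPH oxidase, with a ratio of 3.88 (2.42 to 6.18), and 0 were lower. Of 10 genes of nucleic acid sensing, TLR3 was lower, and of 11 interferon-induced genes CXCL9 was higher.

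Of 10 measured cell cycle genes 3 were lower in TG (4 with TMM factors, CENPE added), 0 were higher and 7 passed in neither direction, with a median log2 ratio of -1.23. The share lower over all genes was 5.92%. With nuclei thinned to 2000 UMIs, only 2 cell cycle genes were measured and 0 passed. With each nucleus weighted equally 1 of 7 was lower (DIAPH3), and with the nucleus richest in each gene left out 2 of 7 were (CENPE and DIAPH3). CENPF, a kinetochore protein, had 0 UMIs in TG and 35 UMIs in 13 nuclei of WT. KIF11, the motor that separates spindle poles, had 0 UMIs in TG and 35 UMIs in 6 nuclei of WT, and DIAPH3, given above, was the other. TOP2A had 1 UMI in TG and 29 UMIs in 5 nuclei of WT. CENPP, which was above the macrophage level in both libraries, stood at 598 CPM in TG and 885 CPM in WT.

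The remaining lists are read against the same 4.93% higher and 5.92% lower over all genes. Of 20 transcription factors and cytokine receptors 4 were higher in TG (ETV3, RELB, STAT5A and NR4A3) and 1 was lower (CBFA2T3). With an XCR1 UMI asked of each nucleus, 1 of 18 was higher (ETV3) and 1 was lower (TGFBR2). With nuclei thinned to 2000 UMIs, 0 of 13 passed in either direction. Of 27 actin and migration genes 3 were lower in TG and 0 higher, and one of them was FMNL2, at 2897 CPM in TG and 6717 CPM in WT, a ratio of 0.431 (0.389 to 0.477). Among nuclei with an XCR1 UMI FMNL2 did not pass, at 4068 CPM in TG and 7240 CPM in WT, and FYB1 was the 1 gene of the 27 that did. Of 14 glucocorticoid and fasting genes 3 were higher and 0 lower, and among nuclei with an XCR1 UMI FKBP5 was the 1 that passed as higher. FKBP5, a glucocorticoid-induced chaperone of the glucocorticoid receptor, stood at 556 CPM in TG and 183 CPM in WT, against 1404 CPM in macrophage nuclei of TG and 1095 CPM in those of WT. Of 13 lipid and lysosome genes 2 were higher and 1 was lower. FABP5, a fatty acid carrier, stood at 169 CPM in TG and 19.9 CPM in WT, and in all nuclei outside the dendritic cell set at 353 CPM in TG and 85.4 CPM in WT. The cholesterol exporter ABCA1 stood at 98.4 CPM in TG and 215 CPM in WT.

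RNA of other cell types was present in these nuclei in both libraries. The summed cardiomyocyte markers stood at 4936 CPM in the dendritic cell nuclei of TG and 3968 CPM in those of WT, against 29751 CPM in all other nuclei of TG and 33709 CPM in those of WT. The thick-filament gene MYH7 alone gave 1695 CPM in TG and 1159 CPM in WT. Fibroblast markers summed to 2109 CPM in TG and 1361 CPM in WT, and of 11 measured 4 were higher in TG, NEGR1 among them, and 1 was lower. Over all genes 4.93% were higher in TG and 5.92% were lower. T or NK markers summed to 485 CPM in TG and 197 CPM in WT. At least 2 UMIs of defining T or NK, vascular endothelial or fibroblast genes were present in 12 of 32 TG and 33 of 123 WT nuclei. Without these nuclei, 3 fibroblast markers were measured, of which 0 were higher and 1 was lower in TG. Some fibroblast markers were among the genes that chose the nuclei left out. The part of these nuclei in the TG to WT differences was not tested, and other values without them are given with the processing alternatives.

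Nuclei without an XCR1 UMI were set against those with one. They numbered 13 of 32 in TG and 26 of 123 in WT, and their median depth was 4415 UMIs in TG and 4779 UMIs in WT, against 3945 UMIs in TG and 6077 UMIs in WT for nuclei with XCR1. The part of depth in the missing UMI was not tested. The genes in this comparison were chosen after their values had been seen. FLT3 was the higher without XCR1 in both libraries, which follows from the rule.

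The identity list, which leaves out the rule genes, stood lower in sum without XCR1. It reached 3436 CPM in TG and 3695 CPM in WT without XCR1, against 7448 CPM in TG and 9646 CPM in WT with it. IRF8 stood at 345 CPM in TG and 592 CPM in WT without XCR1, against 842 CPM in TG and 1121 CPM in WT with it. CADM1 stood at 673 CPM in TG and 1057 CPM in WT without XCR1, against 1981 CPM in TG and 3768 CPM in WT with it. RAB7B stood at 242 CPM in TG and 127 CPM in WT without XCR1, against 569 CPM in TG and 351 CPM in WT with it. ME1 had 0 CPM in TG and 127 CPM in WT without XCR1, against 272.8 CPM in TG and 945 CPM in WT with it.

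Other genes were higher without XCR1. RUNX2, a factor high in plasmacytoid dendritic cells, stood at 915 CPM in TG and 1102 CPM in WT, against 71.2 CPM in TG and 59.7 CPM in WT with XCR1. The ratio was 12.9 in TG (5.53 to 36.6) and 18.4 in WT (12.9 to 26.9). BACH2, a repressor of lymphocyte differentiation, stood at 259 CPM in TG and 622 CPM in WT, against 11.9 CPM in TG and 65.7 CPM in WT with XCR1. FCER1A, a receptor subunit found on the second branch of conventional dendritic cells in human, had 8 UMIs in TG and 17 in WT, all in nuclei without XCR1. MRC1 in TG had 24 UMIs, all in nuclei without XCR1.

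Marker lists of some other cells were also higher in sum without XCR1. Plasmacytoid genes summed to 1917 CPM in TG and 3215 CPM in WT without XCR1, against 996 CPM in TG and 1048 CPM in WT with it. RUNX2, given above, is on this list. It supplied 915 CPM in TG and 1102 CPM in WT of the sums without XCR1. With XCR1 it supplied 71.2 CPM in TG and 59.7 CPM in WT. Genes of the second conventional branch summed to 2262 CPM in TG and 2046 CPM in WT, against 1708 CPM in TG and 1448 CPM in WT with XCR1. The intervals of these sums overlapped in TG, at 1891 to 2684 CPM without XCR1 and 1440 to 2011 CPM with it. In WT they did not overlap. T or NK markers summed to 812 CPM in TG and 525 CPM in WT without XCR1, against 261 CPM in TG and 131 CPM in WT with it. Fibroblast markers went the other way, at 1537 CPM in TG and 607 CPM in WT. With XCR1 they summed to 2503 CPM in TG and 1511 CPM in WT. Dendritic cell nuclei made up 40.5% of the 15 nearest neighbours of nuclei without XCR1 in TG and 57.9% in WT, against 77.5% in TG and 82.6% in WT for nuclei with it. Macrophage nuclei made up 13.8% of the neighbours without XCR1 in TG and 10% in WT, against 0.702% in TG and 0.344% in WT for nuclei with it, and 5.30% of all nuclei in TG and 8.11% in WT. RAB7B was detected in 5 of 13 TG nuclei and 9 of 26 WT nuclei without an XCR1 UMI, against 13 of 19 in TG and 73 of 97 in WT with one.

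**Figure D5:**
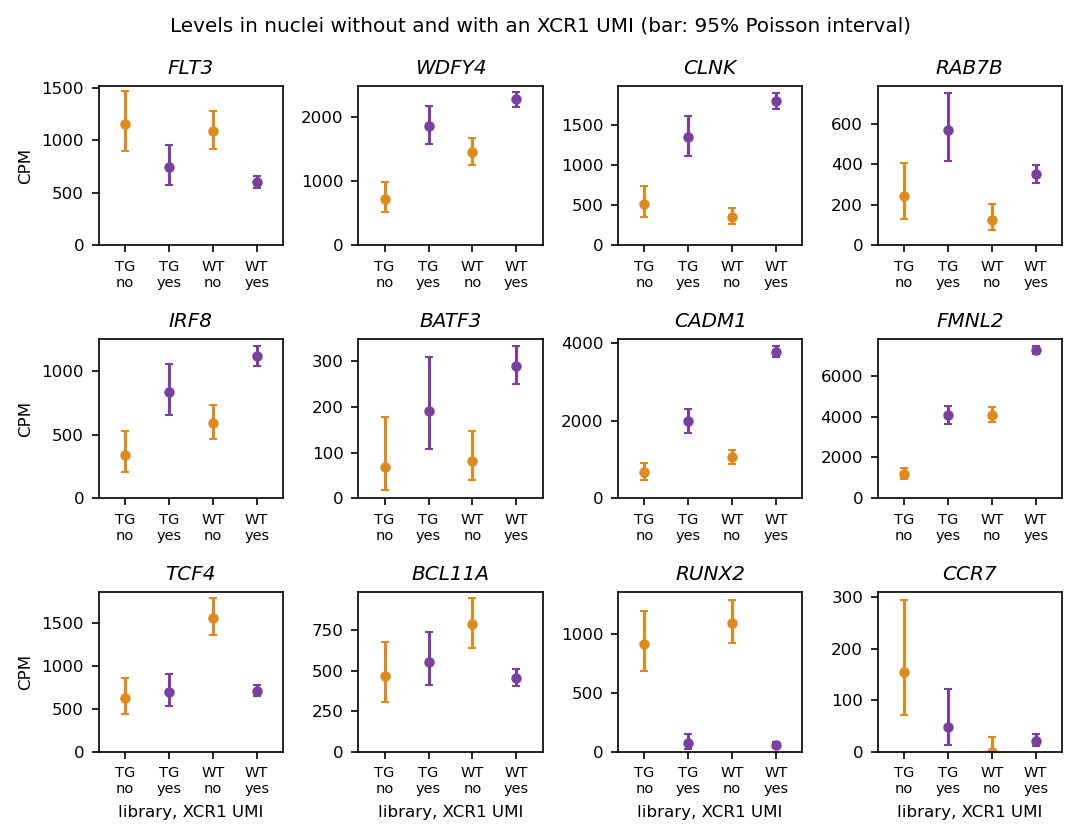
Levels in CPM (y, from 0, one scale per panel) of 12 genes in nuclei without ("no") and with ("yes") an XCR1 UMI in TG and WT, with 95% Poisson intervals of counting error as bars. RAB7B, IRF8, BATF3, CADM1 and FMNL2 are lower without XCR1 in both libraries, FLT3, CLNK and WDFY4 are rule genes shown as a description, RUNX2 is higher without it in both, and TCF4 and BCL11A are higher without it in WT with overlapping intervals in TG.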

How the data were processed

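Single-nucleus RNA sequencing of 1 TG and 1 WT library was used as deposited, as raw UMI counts of 31908 genes per barcode (15000 barcodes in TG, 18251 in WT). The submitters' processing notes name the build Sscrofa11.1, Cell Ranger 3.1.0 and Seurat 3.1.1, whereas the matrices carry Cell Ranger 5.0.0 in their headers, and which version made the counts was not settled. Symbols came from the deposited gene tables (16498 genes) and a reference table of names (851 more). Library totals were 89324966 UMIs in TG and 127126477 in WT. Of the barcodes not kept, 1 in TG and 943 in WT had too few genes, and 60 in TG and 812 in WT had too high a mitochondrial share.

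UMIs were summed over the nuclei of a set and library and divided by nuclear-encoded totals. Levels carry exact Poisson intervals, shares exact Clopper-Pearson intervals and ratios conditional binomial intervals, all at 95% (Python 3.11.15, numpy 2.4.6, scipy 1.17.1, pandas 2.3.3). UMIs within a nucleus are not independent samples of a genotype, so intervals cover counting error only. A count of 0 was taken to allow 3 UMIs. List medians used ratios with 0.5 added to each count. Neighbours came from scanpy 1.11.5 and scikit-learn 1.9.0, and TMM and DESeq2 factors from edgeR 4.0.16 and DESeq2 1.42.0 in R 4.3.3, as scaling only. The ratio and call steps were tested on simulated data. No doublet caller was run, and nuclei with markers of other classes were left out as an alternative instead. As another alternative, the profile of all other nuclei was subtracted at 29.5% of UMIs in TG and 31.0% in WT, the median over cardiomyocyte markers of their level in the dendritic cell nuclei relative to other nuclei, and whether free RNA accounts for those markers was not tested.

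The nuclei, the gene lists and the comparisons were chosen with earlier results of these data known. Named genes were the markers and identity genes, up to 4 most abundant and 3 furthest apart genes of each list, and, among genes of at least 50 CPM, those with the interval bound furthest from no difference: 15 above and 8 below macrophage nuclei, 8 above and 4 below T or NK nuclei, and 12 above and 12 below WT in TG at or above the level of other nuclei. The genes of the comparison by XCR1 and any gene named outside this rule were chosen after their values were seen. Promoter sequences were not analysed here. The values of 1 listed gene are not reported here.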

Additional observations from a re-analysis of the deposited data

Results flagged for a closer look

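A few genes stood on opposite sides of another cell type in the 2 libraries, past 2-fold with intervals that left out 1. The differences between the libraries were not tested. Over macrophage nuclei, ABLIM3 had a ratio of 2.07 in TG and 0.338 in WT, and the cardiomyocyte gene ACTN2 had 0.352 in TG and 2.01 in WT. Over T or NK nuclei, the receptor gene KIT had a ratio of 3.1 in TG and 0.113 in WT, and NEGR1 had 2.41 in TG and 0.269 in WT. In the other direction, the mitotic kinesin gene CENPE had 0.3 in TG and 3.26 in WT, the DNA polymerase gene POLQ had 0 in TG and 2.54 in WT, and the macrophage marker LYVE1 had 0 in TG and 2.31 in WT. In the dendritic cell nuclei, KIT had 7 UMIs in TG and 2 in WT, POLQ had 0 UMIs in TG and 15 in WT, and LYVE1 had 0 UMIs in TG and 29 in WT.

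Outside the kept nuclei, 1 TG barcode and 3 WT barcodes met the marker conditions but not the limits on genes and mitochondrial UMIs. The TG barcode held 0 RAB7B UMIs and the WT barcodes held 12, a signal of the marker that the conditions do not use.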

How the results depend on the processing

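The share of dendritic cell nuclei in TG over WT lay between 0.208 and 0.319 in 10 of the 11 alternatives, against 0.291 as reported, and it was 0.443 among dendritic cell, macrophage and T or NK nuclei only. With nuclei thinned to 2000 UMIs, 238 genes passed 2-fold between TG and WT (109 higher and 129 lower of 2365 tested), against 757 of 6982 as reported. Of the 238, 96 had also passed the same way as reported. Among the 24 genes named between TG and WT, 13 had a thinned ratio inside the counting interval of the reported ratio, and 11 fell outside it. For genes with 0 UMIs in TG that interval reaches down to a ratio of 0, so staying inside it does not mean an unchanged value. The log2 ratio of FAM189A1 went from -6.38 to -4.39 with thinning and that of DEUP1 from -4.97 to -3.34, both inside it. The RAB7B ratio to other nuclei was then 117 in TG and 143 in WT, where fewer UMIs were counted. Under the other alternatives the number of genes lay between 588 and 1088. DESeq2 factors, which left the median log2 ratio of all genes at -0.18, gave 249 higher and 618 lower, and leaving out the nucleus richest in each gene gave 184 higher and 608 lower. Counts over macrophage nuclei lay between 634 and 1043 and over T or NK nuclei between 652 and 1152. Among the 24 genes named between TG and WT, SLCO5A1 had a log2 ratio of -0.026 with 0 UMIs of CD163 and F13A1 asked, and CPM had -2.44 with an XCR1 UMI asked. The cause was not tested. With nuclei that held markers of other classes left out, 16 of the 24 stayed inside the counting interval of the reported ratio and 8 fell outside it. LNX1 and ABLIM3, which fell outside it, had 0 UMIs left in TG, and KITLG had 1. Neighbour percentages were 48.2 in TG and 75.0 in WT with 30 neighbours, and 48.3 in TG and 76.8 in WT with 1000 variable genes. The 32 TG nuclei and their 142222 UMIs limit every level in TG. No paired analysis was possible because each genotype has 1 library.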

Other observations

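Genes of the B cell marker list were measured in the dendritic cell nuclei as well. BANK1, a scaffold of B cell receptor signalling, stood at 260 CPM in TG and 909 CPM in WT, a ratio of 0.286, against 1109 CPM in macrophage nuclei of TG and 2828 CPM in those of WT. RBPJ, the nuclear effector of Notch signalling, which sits on the macrophage list here, stood at 914 CPM in TG and 2524 CPM in WT, a ratio of 0.362, against 6809 CPM in macrophage nuclei of TG and 10390 CPM in those of WT. S100A4, a calcium-binding protein, stood at 155 CPM in TG and 27.4 CPM in WT, a ratio of 5.65.

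Single nuclei carried a few immune transcripts. IL12B, the subunit of the cytokine with which dendritic cells drive T cell responses, had 2 UMIs in 1 TG nucleus and 26 UMIs in 1 WT nucleus. GNLY, a granule protein of NK and T cells, had 19 UMIs in TG and 0 in WT. Among nuclei left out by the limit on RYR2 and CTNNA3 alone, 5 in TG held 5 RAB7B UMIs and 9 in WT held 27, at median depths of 12961 UMIs in TG and 12611 UMIs in WT. Among those left out by the limit on CD163 and F13A1 alone, 13 in TG and 11 in WT held 1 RAB7B UMI in each library.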
